A study of Mus musculus with 4 samples.

Results

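Retnla and Retnlg encode resistin-like molecules (RELMα and RELMγ), and Chil1, Chil3 and Chil4 encode chitinase-like proteins. The 5 genes were taken by their symbols from the 27998 genes listed for every library, and each symbol matched 1 row. They were followed across all cell classes of 4 libraries of single-cell RNA-seq made from nasal mucosa of C57BL/6 mice aged 8 weeks, after enrichment of leukocytes by CD45. Mice were given vehicle or the antiviral ribavirin, and in both arms 1 group also received ovalbumin (OVA) to model allergic rhinitis, so the 4 groups are Vehicle, Vehicle-OVA, Ribavirin and Ribavirin-OVA. Each group was 1 library, the number of mice behind a library is not given in the labels, and the dose and timing of ribavirin are not given in the sources used here. With no replicates the spread between mice is unknown, and no difference was tested. All intervals are 95% intervals that cover counting error only.

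Resistin-like molecules are small secreted proteins rich in cysteine. RELMα is made by macrophages and some epithelia under interleukin-4 (IL-4) and IL-13 and is a usual marker of alternative activation of mouse macrophages, and RELMγ is known from bone marrow and neutrophils. Chitinase-like proteins have the fold of chitinases but do not cut chitin. Chil1 is made by neutrophils, macrophages and epithelial cells, Chil3 (Ym1) by alternatively activated macrophages and by maturing neutrophils in the marrow, and Chil4 (Ym2) mainly by epithelium, with a rise in allergic airways.

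To judge what the sequencing could tell apart, the genes were placed on the genome (RefSeq, GRCm38.p6). Retnla (chr16:48842609-48844461) and Retnlg (chr16:48872608-48874498) are neighbours on the plus strand of chromosome 16, and Chil3 (chr3:106147554-106167564) and Chil4 (chr3:106201491-106219479) are neighbours on the minus strand of chromosome 3. Chil1 (chr1:134182156-134190031, plus strand) stands alone on chromosome 1. Of all windows of 90 bases in their annotated transcripts, 7.42% of those of Chil3 and 2.98% of those of Chil4 occurred unchanged in another gene. The matches lay in each other or in the predicted gene Gm6522, so a read within such a window cannot be told apart between these genes. The other 3 genes shared no such window. Among windows in the last 500 bases of the transcripts the shares were 8.76% for Chil3 and 5.23% for Chil4.

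The promoters of both neighbour pairs are shown because the members of a pair were found in different cells although their promoters are alike. Each line runs 5′ to 3′ from base 250 to base 51 before the annotated start. Capitals mark letters that match TTC and GAA with 4 bases between them (the STAT6 type of site), TTCNNNGAA with 3 bases between them (the type of other STAT factors) or TTGCNNAA (the C/EBP type), searched on both strands.
Retnla (GRCm38.p6, plus strand, chr16:48842359-48842558): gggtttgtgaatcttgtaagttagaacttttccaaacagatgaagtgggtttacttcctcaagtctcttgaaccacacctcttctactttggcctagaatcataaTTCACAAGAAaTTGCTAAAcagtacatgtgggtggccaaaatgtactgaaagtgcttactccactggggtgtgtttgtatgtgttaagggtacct
Retnlg (GRCm38.p6, plus strand, chr16:48872358-48872557): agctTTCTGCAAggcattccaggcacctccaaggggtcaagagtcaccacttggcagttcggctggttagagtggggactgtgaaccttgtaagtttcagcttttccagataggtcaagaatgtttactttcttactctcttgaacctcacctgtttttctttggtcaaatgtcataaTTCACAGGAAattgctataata
Chil3 (GRCm38.p6, minus strand, chr3:106167615-106167814): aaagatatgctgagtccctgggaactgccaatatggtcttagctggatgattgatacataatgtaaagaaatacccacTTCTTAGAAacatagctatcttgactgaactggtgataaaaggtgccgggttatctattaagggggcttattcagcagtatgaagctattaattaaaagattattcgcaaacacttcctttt
Chil4 (GRCm38.p6, minus strand, chr3:106219530-106219729): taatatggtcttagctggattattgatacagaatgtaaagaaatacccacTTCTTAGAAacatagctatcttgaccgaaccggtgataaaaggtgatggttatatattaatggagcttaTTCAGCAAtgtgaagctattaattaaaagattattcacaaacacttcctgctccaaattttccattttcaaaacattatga

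In the local alignment of the longer windows that reach 50 bases past the start, Retnla and Retnlg shared 178 of 228 aligned bases (78.1%) and Chil3 and Chil4 shared 251 of 272 (92.3%). The motif with 4 bases between TTC and GAA was found in Retnla, 145 bases before its start, and in Retnlg, 72 bases before its start. It occurs in 4.78% of the 32851 promoters of this length. TTCNNNGAA was found in Chil3 and Chil4 and occurs in 5.76% of promoters, and TTGCNNAA was found in Retnla, Retnlg and Chil4 and occurs in 8.11%. None of the 3 was found in the window of Chil1. These are matches of letters and no measure of binding.

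The deposited counts held 10311 to 28277 cells and 91742940 to 171873110 unique molecular identifiers (UMIs, each standing for 1 captured transcript) per library, with a median of 3389 to 4952 UMIs per cell, and 8769 to 24306 cells of a library were kept. Joint clustering gave 44 clusters, of which 38 were named from markers into classes written with "-like". Of these classes, 12 had at least 50 cells in every library. Vehicle-OVA supplied 95.6% of cluster 4, 80.5% of cluster 7 and 83.2% of cluster 11, and Ribavirin supplied 86% of cluster 8, 97.5% of cluster 33 and 92.2% of cluster 37. Clusters 4, 7 and 8 are neutrophil-like, and cluster 11 stayed unnamed although all 11 neutrophil markers were detected in it, so results on neutrophils are also given without such clusters. Although the cells had been sorted for CD45, 1.02% to 4.32% of the cells kept were epithelial-like, and the values of Chil1 and Chil4 there are those of the epithelial cells that passed the sort. Pairs of libraries shared 57 to 174 cell barcodes (0.266% to 0.909% of a library).

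Levels are given as CPM, the usual counts-per-million scale, with the UMIs of a gene taken over all UMIs of the same class and library. Over the 4 libraries the 5 genes had 3 leading classes. Macrophage-like cells led for Retnla, immature neutrophil-like cells for Retnlg and Chil3, and epithelial-like cells for Chil1 and Chil4. The 5 genes were left out of the genes used for clustering.

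**Figure D1:**
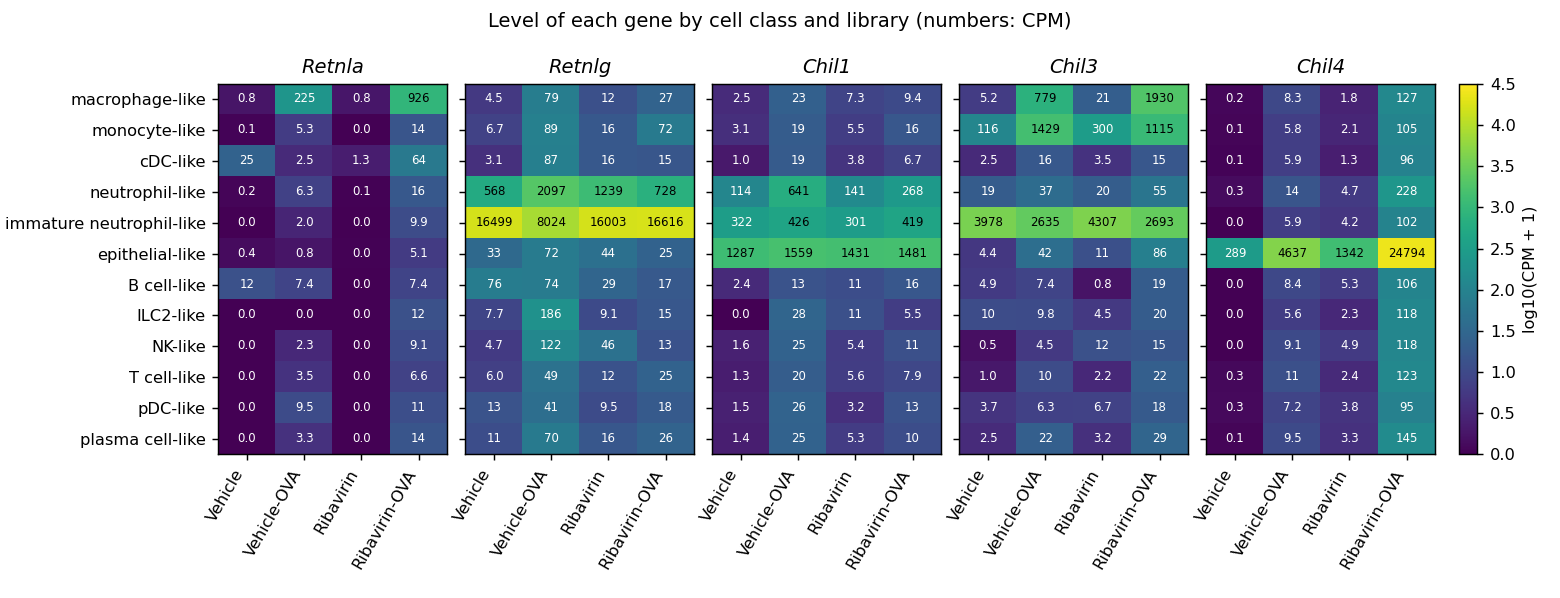
Heat map of the level of each of the 5 genes (CPM printed in each cell, colour log10 of CPM + 1) in the 12 classes with at least 50 cells in every library, by library. Retnla in macrophage-like cells is at 225 and 926 CPM in Vehicle-OVA and Ribavirin-OVA and below 1 CPM in Vehicle and Ribavirin, and Chil4 is higher in Ribavirin-OVA than in the other libraries in every class shown, with its highest level in epithelial-like cells (24794 CPM).

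To ask where Retnla is transcribed and how it differs with OVA, its UMIs were counted by class. In macrophage-like cells Retnla was found at 0.780 CPM (0.477 to 1.21, from 20 UMIs) in Vehicle, 225 CPM (219 to 231, from 5252 UMIs) in Vehicle-OVA, 0.849 CPM (0.503 to 1.34, from 18 UMIs) in Ribavirin and 926 CPM (912 to 940, from 16316 UMIs) in Ribavirin-OVA. Both libraries with OVA were far above both without it. The level with OVA was 288-fold (186 to 472) that of Vehicle and 1090-fold (690 to 1840) that of Ribavirin, the third largest and the largest ratio of 12030 genes compared in this class. Ranks, medians over genes and counts of genes past 2-fold are on the log2(CPM + 1) scale, which understates low genes, and folds of single genes are ratios of CPM. Ribavirin-OVA had 4.12-fold (3.99 to 4.25) the Retnla of Vehicle-OVA, whereas the level in Ribavirin against Vehicle was within counting error (1.09-fold, 0.543 to 2.17). In Vehicle and in Ribavirin the 5 richest cells held 100% of the 20 and 18 UMIs. The base of these folds thus rested on few cells, and the intervals leave out the spread between cells.

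Macrophage-like cells held 92.0% of all Retnla UMIs of Vehicle-OVA and 93.7% of those of Ribavirin-OVA. The transcript was concentrated in few of them. Cells with at least 10 Retnla UMIs numbered 52 of 2218 in Vehicle-OVA and 158 of 1478 in Ribavirin-OVA, and these cells held 93.3% and 96.8% of the Retnla UMIs of the class. The richest cell had 479 UMIs in Vehicle-OVA and 943 in Ribavirin-OVA, against 10 in Vehicle and 9 in Ribavirin. After thinning each cell to 1000 UMIs, which sets the classes to 1 depth, the share of macrophage-like cells with a Retnla UMI was 0.0411%, 3.72%, 0.10% and 13% for Vehicle, Vehicle-OVA, Ribavirin and Ribavirin-OVA. Unthinned, at median depths of 9512.5 to 10259 UMIs, the shares were 0.123%, 8.84%, 0.25% and 26.05%.

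Different clusters held most macrophage-like cells without and with OVA. Cluster 9, led by Ccl24, an eosinophil-attracting chemokine, and Arg1, the arginase of alternatively activated macrophages, had 35 and 72 cells in Vehicle and Ribavirin but 2033 and 1272 in Vehicle-OVA and Ribavirin-OVA. Retnla in cluster 9 was at 188 CPM in Vehicle-OVA and 915 CPM in Ribavirin-OVA. Cluster 16, led by Fcrls and Ccl12, was present in all 4 libraries with 858, 119, 620 and 145 cells in the order Vehicle, Vehicle-OVA, Ribavirin and Ribavirin-OVA, and Retnla there was at 1.27, 815, 0.338 and 1283 CPM. In cluster 10, led by the complement genes C1qb and C1qa, the same order gave 0.581, 46.7, 0.84 and 17.7 CPM. These levels rested on only 10, 30, 11 and 11 UMIs in 1532, 66, 1141 and 58 cells. The higher level with OVA was therefore also found within clusters 10 and 16, while the higher level of Ribavirin-OVA over Vehicle-OVA was found in clusters 9 and 16 but not in cluster 10. Cluster 19, unnamed, shallow and led by haemoglobin and osteoclast genes among others, had 347 CPM in Vehicle-OVA and 567 CPM in Ribavirin-OVA.

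In cDC-like and B cell-like cells without OVA single cells decided the level. In conventional dendritic cell (cDC)-like cells the level of Retnla was 24.95 CPM in Vehicle, 2.49 CPM in Vehicle-OVA, 1.26 CPM in Ribavirin and, highest, 63.7 CPM in Ribavirin-OVA. All 294 UMIs of Vehicle came from 1 of 1202 cells, and this cell held 86% of the 342 Retnla UMIs of the whole library. In Ribavirin 14 UMIs came from 1 cell, and in Ribavirin-OVA the richest cell had 98 of 210 UMIs. In Ribavirin-OVA the 100 UMIs of neutrophil-like cells and the 59 of T cell-like cells were spread, with at most 3 and 2 per cell. The 15 UMIs of B cell-like cells in Vehicle also came from 1 cell. The order of the classes in Vehicle, with cDC-like and B cell-like cells above macrophage-like cells, thus rested on 2 cells.

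**Figure D2:**
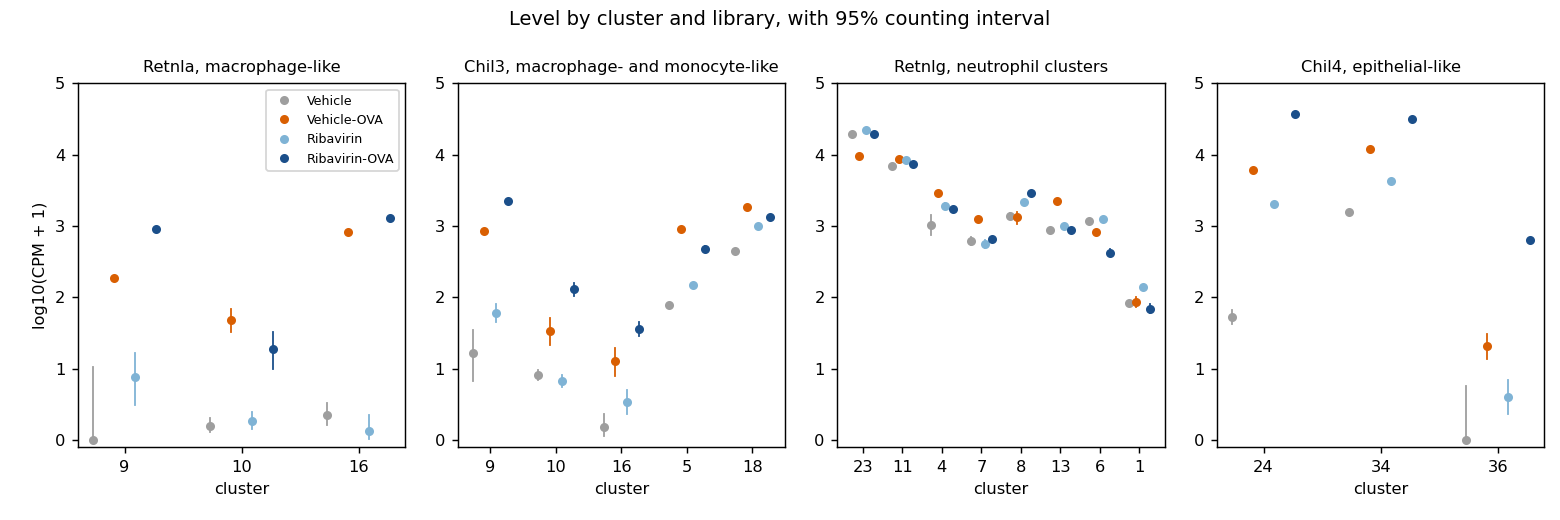
Level by cluster and library (log10 of CPM + 1) with 95% counting intervals, for Retnla in macrophage-like clusters, Chil3 in macrophage-like and monocyte-like clusters, Retnlg in neutrophil-like clusters and the unnamed cluster 11, and Chil4 in epithelial-like clusters, each for libraries with at least 10 cells in the cluster. Retnla in clusters 9 and 16 and Chil4 in clusters 24 and 34 are highest in Ribavirin-OVA, and Retnlg in cluster 23 is lowest in Vehicle-OVA.

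To ask whether other genes known to answer to IL-4 in macrophages went with Retnla, a list of 13 such genes was compared in macrophage-like cells. Of these, 7 were at least 2-fold higher with OVA under vehicle and 8 under ribavirin, and none was 2-fold lower in either pair, where 9.89% and 7.45% of all genes compared were at least 2-fold higher and 4.7% and 3.15% at least 2-fold lower. The median log2 ratio of the list was 1.23 and 1.25, beside 0.18 and 0.21 over all genes. Arg1 was at 8.27, 4019, 74.8 and 3152 CPM, in the order Vehicle, Vehicle-OVA, Ribavirin and Ribavirin-OVA, and Mrc1, the mannose receptor, at 389, 1314, 339 and 1419 CPM. Both had higher levels in the 2 libraries with OVA than in the 2 without. Ccl24 was higher in Vehicle-OVA (3065 CPM) than in Ribavirin-OVA (2059 CPM), the opposite of the order of Retnla. Ccl24 also had the pattern most like that of Retnla over the 55 combinations of class and library (Pearson's r of log levels 0.77 among 13115 genes), followed by Cltc (0.76) and Mmp12, a macrophage elastase (0.70). These points share libraries and depth, and the correlation is a description.

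Of the 5 genes themselves, all 5 were at least 2-fold higher with OVA in macrophage-like cells under vehicle and 4, all but Chil1, under ribavirin, where 9.89% and 7.45% of all genes were. The count includes Chil4, which in macrophage-like cells was at 8.30 CPM in Vehicle-OVA and 127 CPM in Ribavirin-OVA, beside 10.8 and 121 CPM in lymphocytes. In lymphocytes of Vehicle-OVA 35 of the 87 Chil4 UMIs lay in 1 cell. Markers of neutrophils moved too. Of 12 neutrophil granule and maturation genes, 11 were at least 2-fold higher in macrophage-like cells of Vehicle-OVA than of Vehicle, and 5 were higher and 1 was lower in the ribavirin pair. Retnlg in macrophage-like cells was at 4.53, 78.9, 11.5 and 26.5 CPM and Chil1 at 2.54, 22.8, 7.31 and 9.42 CPM in the order Vehicle, Vehicle-OVA, Ribavirin and Ribavirin-OVA. In T cell-like cells of the same libraries Retnlg was at 6.05, 48.9, 12.5 and 24.8 CPM and Chil1 at 1.30, 19.8, 5.57 and 7.92 CPM, levels of the same order as in macrophage-like cells. The part of RNA from other cells in these low levels was not tested.

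To follow Retnlg, immature neutrophil-like cells, its leading class, were compared first. Its level there was 16499 CPM (16240 to 16762) in Vehicle, 8024 CPM (7883 to 8167) in Vehicle-OVA, 16003 CPM (15843 to 16164) in Ribavirin and 16616 CPM (16450 to 16782) in Ribavirin-OVA. Vehicle-OVA stood apart from the other 3 libraries, with 0.486-fold (0.475 to 0.498) the level of Vehicle. Ribavirin-OVA had 1.04-fold (1.02 to 1.05) the level of Ribavirin and 2.07-fold (2.03 to 2.11) that of Vehicle-OVA. The median log2 ratio of all genes in this class was 0.33 with OVA under vehicle and 0.34 under ribavirin, and relative to it Retnlg was lower by 1.37 and 0.29 on the log2 scale. Of the 12 granule and maturation genes, Cd177 was at least 2-fold higher and Camp 2-fold lower in the vehicle pair and none passed this limit in the ribavirin pair, where 14.1% and 8.53% of all genes were at least 2-fold higher and 4.12% and 3.45% lower. Camp, a cathelicidin of secondary granules, was at 26767, 12266, 25615 and 16596 CPM.

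In neutrophil-like cells Retnlg was at 568 CPM (558 to 580) in Vehicle, 2097 CPM (2079 to 2115) in Vehicle-OVA, 1239 CPM (1223 to 1255) in Ribavirin and 728 CPM (707 to 750) in Ribavirin-OVA. Here Vehicle-OVA was the highest of the libraries, 3.69-fold (3.61 to 3.77) the level of Vehicle, while Ribavirin-OVA had 0.587-fold (0.569 to 0.607) the level of Ribavirin. The median of all genes was shifted by -0.66 and 0.34 in these pairs. The sizes depended on the clusters that are mostly from 1 library. Without such clusters Vehicle-OVA over Vehicle had a log2 ratio of 0.55 in place of 1.88, and that of the ribavirin pair changed sign to 0.02 when the unnamed cluster 11 was counted as neutrophil-like, and to 0.17 with separate clustering of the 4 libraries.

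Cluster 11, in which Retnlg is the leading gene, held 2120 cells of Vehicle-OVA against 98 to 172 cells of the others, and in it Retnlg was at 6984, 8656, 8319 and 7365 CPM in the order Vehicle, Vehicle-OVA, Ribavirin and Ribavirin-OVA. Within the cluster the libraries were thus closer to each other than within either named class. Of the Retnlg UMIs of Vehicle-OVA, 49.9% lay in cluster 11 and 8.73% in immature neutrophil-like cells, whereas immature neutrophil-like cells held 51.2%, 56.0% and 76.7% of those of Vehicle, Ribavirin and Ribavirin-OVA. Over the 55 combinations of class and library the patterns most like that of Retnlg were those of Wfdc21 (r = 0.95), S100a8 (0.94) and Mrgpra2b (0.93), S100a8 being a calcium-binding protein abundant in neutrophils. Retnla and Retnlg, whose promoters are shown above, had a correlation of 0.02 over the same points.

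Chil3 was highest in immature neutrophil-like cells in all 4 libraries, and with OVA macrophage-like cells were added as a source. In immature neutrophil-like cells it was at 3978 CPM (3851 to 4108) in Vehicle, 2635 CPM (2554 to 2718) in Vehicle-OVA, 4307 CPM (4225 to 4391) in Ribavirin and 2693 CPM (2626 to 2760) in Ribavirin-OVA. Both libraries with OVA were lower, with 0.662-fold (0.633 to 0.693) the level of Vehicle and 0.625-fold (0.606 to 0.645) that of Ribavirin. Within this class the balance of Chil3 and Retnlg differed between clusters. Cluster 43, which also expressed the primary granule gene Prtn3 and held 7 to 41 cells of a library, had Chil3 at 8473, 4738, 8370 and 7756 CPM and Retnlg at 170, 575, 680 and 230 CPM in the order Vehicle, Vehicle-OVA, Ribavirin and Ribavirin-OVA. Cluster 23, the larger cluster of the class, had Chil3 at 3140, 2237, 2660 and 1800 CPM and Retnlg at 19541, 9435, 22216 and 19504 CPM. In thinned cells a Chil3 UMI was found in 100%, 91.7%, 100% and 95% of the immature neutrophil-like cells without Retnlg, against 46.4%, 43.0%, 41.4% and 34.1% of those with Retnlg. The cells without Retnlg were few, since 80.2%, 90.5%, 84.9% and 92.9% of the 121, 126, 279 and 281 thinned cells had it. Cells with both transcripts were 37.2%, 38.9%, 35.1% and 31.7% of the class.

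In macrophage-like cells Chil3 was at 5.19 CPM (4.35 to 6.15) in Vehicle, 779 CPM (768 to 791) in Vehicle-OVA, 20.9 CPM (19.0 to 22.99) in Ribavirin and 1930 CPM (1910 to 1951) in Ribavirin-OVA. As for Retnla, both libraries with OVA were far above both without it, by 150-fold (127 to 179) and 92.1-fold (83.9 to 101), the fourth and the third largest ratio of 12030 genes. Ribavirin-OVA had 2.48-fold (2.43 to 2.52) the level of Vehicle-OVA, and Ribavirin 4.04-fold (3.32 to 4.94) that of Vehicle. Most of the Ribavirin UMIs, also the base of the 92.1-fold ratio, came from cluster 37 (310 UMIs in 166 cells, 218 CPM). That cluster was 92.2% from Ribavirin and held 1.76% of the Chil3 UMIs of the library. In cluster 10 Ribavirin was below Vehicle (5.72 against 7.09 CPM). In clusters 9 and 16 Ribavirin was above Vehicle (59.5 against 15.7 and 2.37 against 0.507 CPM), from at most 45 UMIs. Macrophage-like cells held 1.83% and 2.52% of the Chil3 UMIs of Vehicle and Ribavirin but 61.3% and 72.0% of those of Vehicle-OVA and Ribavirin-OVA. Chil3 was found in more macrophage-like cells than Retnla, with a UMI in 27.1% and 34.7% of thinned cells of Vehicle-OVA and Ribavirin-OVA against 0.411% and 1.5% in Vehicle and Ribavirin. Unthinned, the shares were 50.2% and 57.9% against 2.59% and 5.60%. In lymphocytes, which were shallower, the unthinned shares were 4.64% and 12.4% against 0.409% and 1.29%. The part of RNA from other cells in the macrophage-like shares was not tested.

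Cluster 9 held most UMIs of both genes in the libraries with OVA, with 69.7% and 78.5% of the Retnla UMIs and 61.2% and 71.7% of the Chil3 UMIs of Vehicle-OVA and Ribavirin-OVA, while cluster 16 had Retnla and little Chil3. Chil3 in cluster 9 was at 15.7, 857, 59.5 and 2268 CPM, in the order Vehicle, Vehicle-OVA, Ribavirin and Ribavirin-OVA, whereas in cluster 16, where Retnla reached its highest levels, it was at 0.507, 11.8, 2.37 and 35.4 CPM. In thinned macrophage-like cells 1.36% of Vehicle-OVA and 5.01% of Ribavirin-OVA had both transcripts, where the product of the shares of each alone was 1.01% and 4.52%. A Chil3 UMI was found in 36.7% of the cells with Retnla and 26.7% of those without it in Vehicle-OVA, and in 38.4% and 34.1% in Ribavirin-OVA. Arg1 was found in 83.9% of the cells with Chil3 and 71.3% of those without it in Vehicle-OVA, and in 82.8% and 62.7% in Ribavirin-OVA. For cells with and without Retnla the Arg1 shares were 82.3% and 74.4% in Vehicle-OVA, but 68.4% and 69.9% in Ribavirin-OVA. The Ccl24 shares were 69.6% and 44.0% in Vehicle-OVA and 60.5% and 46.0% in Ribavirin-OVA.

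**Figure D3:**
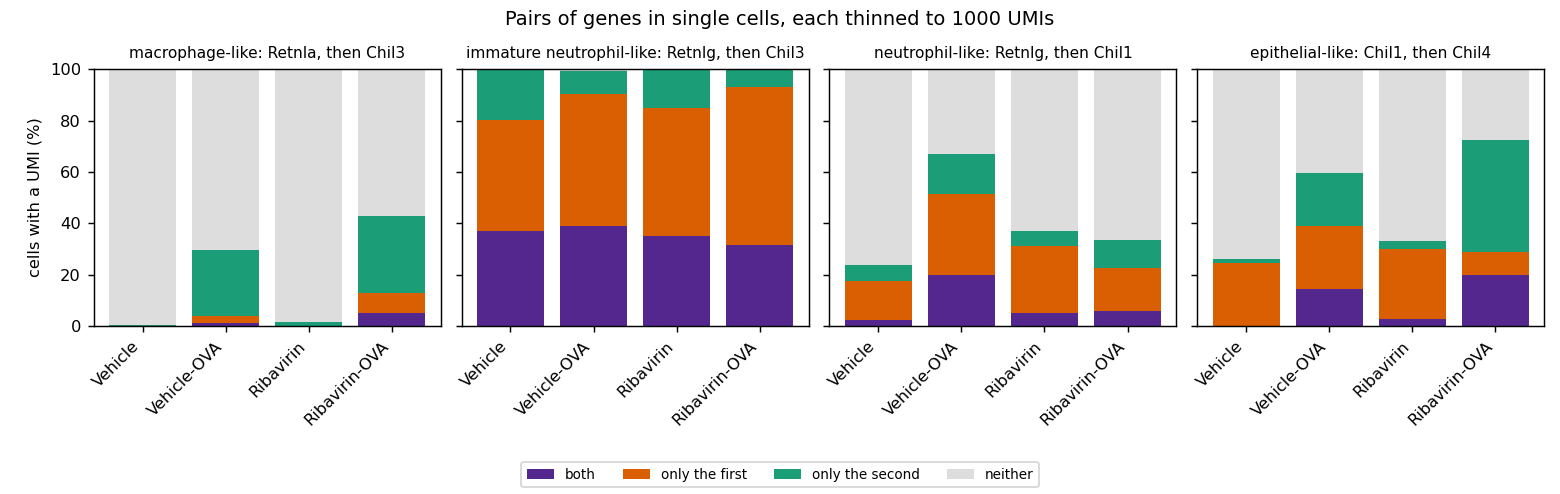
Shares of cells (%), each cell thinned to 1000 UMIs, with both transcripts of a pair, only the first, only the second or neither, by library. In immature neutrophil-like cells those with neither Retnlg nor Chil3 are at most 0.794% of a library, and in macrophage-like cells those with both Retnla and Chil3 are 1.36% in Vehicle-OVA and 5.01% in Ribavirin-OVA.

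Monocyte-like cells were the third source of Chil3, at 116 CPM (112 to 121) in Vehicle, 1429 CPM (1393 to 1467) in Vehicle-OVA, 300 CPM (292 to 309) in Ribavirin and 1115 CPM (1080 to 1151) in Ribavirin-OVA. The libraries with OVA were higher by 12.3-fold (11.8 to 12.9) and 3.71-fold (3.56 to 3.87), where the median log2 ratio of all genes was 0.27 and 0.28, and these were the fourth and the 85th largest ratio of 10784 genes. All 5 genes, of which Chil4 was at the level of lymphocytes, were at least 2-fold higher in this class in both pairs, against 10.1% and 10.4% of all genes, and none was 2-fold lower, against 3.93% and 3.96%. Retnla had 2, 21, 0 and 50 UMIs here for Vehicle, Vehicle-OVA, Ribavirin and Ribavirin-OVA, and 18 of the 50 lay in 1 cell. Its level in Vehicle-OVA (5.27 CPM, 3.26 to 8.06) overlapped that in lymphocytes (3.99 CPM, 2.73 to 5.63). Of the 12 neutrophil granule and maturation genes, 10 and 9 were also at least 2-fold higher here, and their part in the levels of Retnlg and Chil1 was not tested. Here Ribavirin-OVA had 0.780-fold (0.749 to 0.813) the Chil3 level of Vehicle-OVA, unlike in macrophage-like cells. Different clusters held the class, since cluster 5 had 2379 and 1603 cells in Vehicle and Ribavirin but 201 and 105 in Vehicle-OVA and Ribavirin-OVA, and cluster 18, led by Ace and Vcan, had 406, 237, 471 and 283 cells in the order Vehicle, Vehicle-OVA, Ribavirin and Ribavirin-OVA. In that order Chil3 was at 77.8, 901, 149 and 476 CPM in cluster 5 and at 447, 1867, 999 and 1322 CPM in cluster 18. Within either cluster the level was higher with OVA, and in cluster 18 the difference was smaller than over the whole class. Over the 55 combinations of class and library the patterns most like that of Chil3 were those of Prtn3 (r = 0.81), Cd177 (0.80) and C1rl (0.80).

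Chil1 was the steadiest of the 5 genes in its leading class. In epithelial-like cells it was at 1287 CPM (1257 to 1317) in Vehicle, 1559 CPM (1525 to 1594) in Vehicle-OVA, 1431 CPM (1415 to 1448) in Ribavirin and 1481 CPM (1461 to 1501) in Ribavirin-OVA. The ratio with OVA was 1.21 (1.17 to 1.25) under vehicle and 1.03 (1.02 to 1.05) under ribavirin, which is near the median of all genes (log2 ratio 0.28 and 0.05 against 0.20 and 0.25), and its sign changed with the processing. Its epithelial clusters were unlike each other. In cluster 24, led by Reg3g, Bpifa1 and Muc5ac, genes of airway secretory cells, Chil1 was at 3168, 2453, 3373 and 1741 CPM in the order Vehicle, Vehicle-OVA, Ribavirin and Ribavirin-OVA. In cluster 36, led by Bpifb3, Gpx6 and Bpifb4, it was at 2207, 1745, 830 and 4193 CPM. With OVA the level was thus lower in both clusters under vehicle, while under ribavirin it was lower in cluster 24 and higher in cluster 36.

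Neutrophils were the other source of Chil1, a protein of their specific granules. In neutrophil-like cells it was at 114 CPM (109 to 119) in Vehicle, 641 CPM (631 to 651) in Vehicle-OVA, 141 CPM (136 to 147) in Ribavirin and 268 CPM (255 to 282) in Ribavirin-OVA. The libraries with OVA were higher by 5.63-fold (5.38 to 5.89) and 1.90-fold (1.78 to 2.02). Of the 5 genes, 4 (all but Chil3) were at least 2-fold higher in this class under vehicle and 3 (Retnla, Chil3 and Chil4) under ribavirin, where 7.44% and 9.22% of all genes were, and none was 2-fold lower, where 33.4% and 2.4% of all genes were. Both counts include Chil4, at 14.4 CPM in Vehicle-OVA and 228 CPM in Ribavirin-OVA in this class beside 10.8 and 121 CPM in lymphocytes. Retnla and Chil3 were also low here, at 16.4 and 55.2 CPM in Ribavirin-OVA beside 6.87 and 21.5 CPM in lymphocytes. Retnla in neutrophil-like cells of Vehicle-OVA was at 6.30 CPM beside 3.99 CPM in lymphocytes. The part of RNA from other cells in these levels was not tested. Cluster 4, led by Csf3 and Cxcl3 and almost wholly from Vehicle-OVA, held 39.2% of the Chil1 UMIs of that library, and without clusters of 1 library Vehicle-OVA over Vehicle had a log2 ratio of 1.22 in place of 2.49. In immature neutrophil-like cells Chil1 was at 322, 426, 301 and 419 CPM, 1.32-fold (1.15 to 1.52) and 1.39-fold (1.26 to 1.53) higher with OVA. The patterns most like that of Chil1 were those of F3, tissue factor (r = 0.92), Lcn2, lipocalin 2 of granules and epithelium (0.92), and Qsox1 (0.87).

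Chil4 was found almost wholly in epithelial-like cells, which held 98.2%, 96.4%, 92.2% and 97.6% of its UMIs for Vehicle, Vehicle-OVA, Ribavirin and Ribavirin-OVA. Its level there was 289 CPM (275 to 303) in Vehicle, 4637 CPM (4578 to 4697) in Vehicle-OVA, 1342 CPM (1326 to 1357) in Ribavirin and 24794 CPM (24713 to 24875) in Ribavirin-OVA. Both libraries with OVA were above both without it. The ratio with OVA was 16.05 (15.3 to 16.9) under vehicle and 18.5 (18.3 to 18.7) under ribavirin, the 15th and the sixth largest of 13250 genes. Of the 5 genes, Chil3, Chil4 and Retnlg were at least 2-fold higher in epithelial-like cells under vehicle and Chil3, Chil4 and Retnla under ribavirin, against 8.77% and 4.34% of all genes, and none was 2-fold lower, against 5.06% and 1.95%. Retnla in epithelial-like cells of Ribavirin-OVA (5.13 CPM) was below its level in lymphocytes (6.87 CPM), and Retnlg in those of Vehicle-OVA (72.1 CPM) was not far above its own level there (56.3 CPM). Chil3 in epithelial-like cells was at 41.7 CPM in Vehicle-OVA and 86.5 CPM in Ribavirin-OVA, beside 9.60 and 21.5 CPM in lymphocytes. The part of reads in windows shared with Chil4 in these Chil3 levels was not tested. Ribavirin-OVA had 5.35-fold (5.28 to 5.42) the Chil4 level of Vehicle-OVA, and Ribavirin 4.64-fold (4.41 to 4.89) that of Vehicle.

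Few cells carried Chil4 without OVA. In Vehicle 1 cell held 1226 of the 1588 UMIs of epithelial-like cells, and cells with at least 10 UMIs numbered 8 of 389 in Vehicle and 49 of 785 in Ribavirin, against 60 of 173 in Vehicle-OVA and 222 of 379 in Ribavirin-OVA. The 5 richest cells held 96.9%, 44.4%, 54.8% and 12.3% of the UMIs in the order Vehicle, Vehicle-OVA, Ribavirin and Ribavirin-OVA. Without the 5 richest cells of each library the log2 ratio with OVA was 8.22 under vehicle, in place of 4.00, and 5.19 under ribavirin, in place of 4.21. Thinned, a Chil4 UMI was found in 1.45%, 35.2%, 5.99% and 63.5% of epithelial-like cells, and unthinned in 2.83%, 54.9%, 14.1% and 87.9%. In lymphocytes, which were shallower, the unthinned shares were 0.121%, 3.31%, 1.51% and 47.9%. The part of RNA from other cells in the epithelial shares was not tested. The median depth of epithelial-like cells was 8986, 24552, 19649 and 31192 UMIs.

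Among epithelial clusters, Chil4 was at 52.8, 6035, 1997 and 37079 CPM in cluster 24 and at 1571, 12160, 4208 and 31652 CPM in cluster 34, which is led by Cyp2g1, Sec14l3 and Muc2. In cluster 42, a small cluster led by Coch, Gm933 and Ascl3, it was at 6.33, 381, 98.7 and 5351 CPM, and in cluster 36 at 0, 19.9, 3.04 and 625 CPM. The higher level with OVA was found in each of these clusters, and cluster 36, one of the sources of Chil1, had the lowest Chil4 of them in every library. The other epithelial-like clusters, 30 and 35, were below lymphocytes with OVA. They were at 3.56 and 0 CPM in Vehicle-OVA, beside 10.8 CPM in lymphocytes, and at 64.6 and 76.1 CPM in Ribavirin-OVA, beside 121 CPM. In thinned epithelial-like cells of Ribavirin-OVA 69.2% of the cells with Chil1 and 61.2% of those without it had Chil4, and in Vehicle-OVA 37.5% and 33.7%. The patterns most like that of Chil4 were those of Bpifb3, Bpifa1 and Muc5ac, a mucin of goblet cells, each at r = 0.87. Chil3 and Chil4 had a correlation of 0.24 over the same points.

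**Figure D4:**
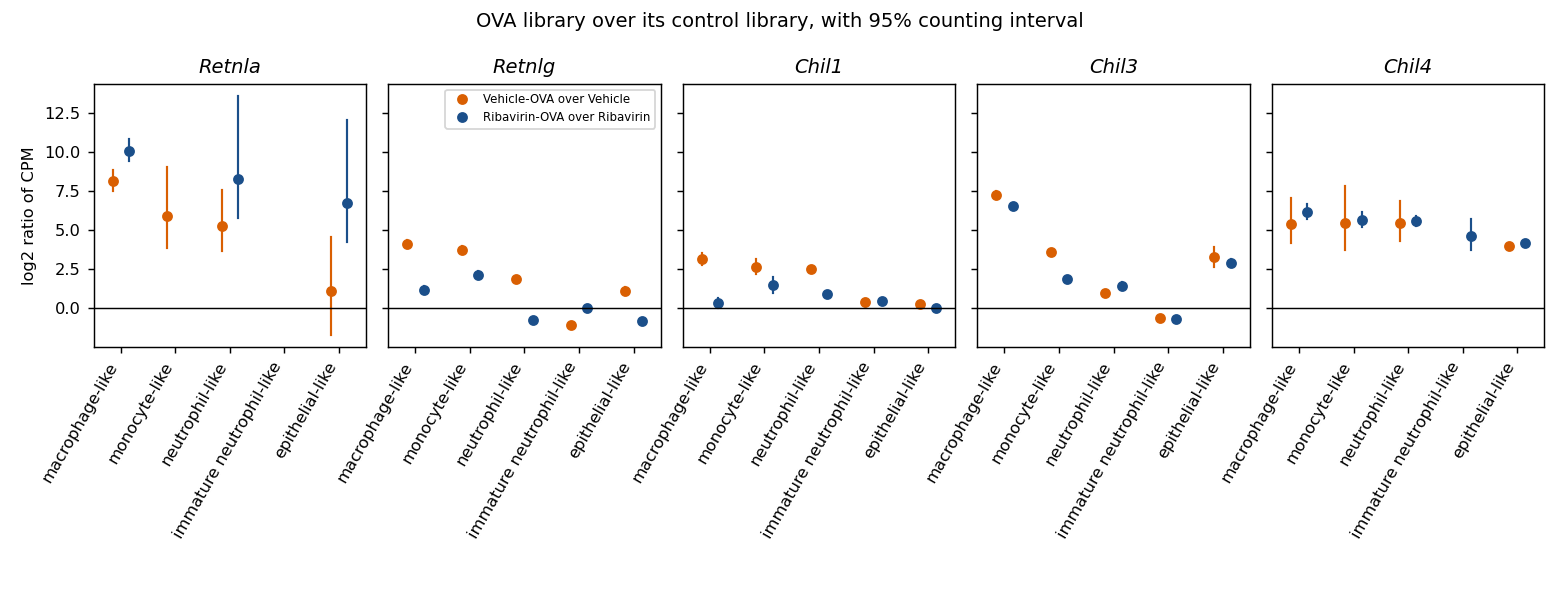
Log2 ratio of CPM of each OVA library over its control library in 5 classes, with 95% counting intervals, where the black line marks no difference and genes with 0 UMIs in a library are left out. Retnla and Chil3 in macrophage-like cells are far above the line in both pairs, and Retnlg in neutrophil-like and epithelial-like cells is above it under vehicle and below it under ribavirin.

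Relatives of the 5 genes were looked at in the same classes. Chil6, a close relative of Chil3 and Chil4, was at 773, 511, 633 and 847 CPM in epithelial-like cells of Vehicle, Vehicle-OVA, Ribavirin and Ribavirin-OVA, and Chit1, an active chitinase, at 6.55, 19.97, 12.2 and 65.2 CPM. Of the 5 relatives with enough UMIs in this class, Chit1 alone was at least 2-fold higher with OVA in both pairs. Retnlb had 0 UMIs in epithelial-like and macrophage-like cells of all 4 libraries. Of the genes for proteins reported as receptors of chitinase-like proteins, Il13ra2 in epithelial-like cells was at 2.55, 6.27, 1.99 and 8.34 CPM, and Cd44 in macrophage-like cells at 89.3, 481, 110 and 346 CPM. These were the ones of 3 receptor genes with enough UMIs in epithelial-like cells and of 2 in macrophage-like cells that were at least 2-fold higher with OVA in both pairs, beside the shares of all genes given above for each class. Tmem219 in macrophage-like cells was at 82.7, 78.0, 82.1 and 71.2 CPM, Cd44 in epithelial-like cells at 87.9, 167, 61.1 and 66.9 CPM, and Ptgdr2 had at most 1 UMI in either class of a library.

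To see how much of the low levels in other classes free RNA could give, the 5 genes were measured in T cell-, B cell- and NK-like cells, which should lack them. As a share of the level in all other cells, the level in these lymphocytes ran from 1.62% to 3.39% in Vehicle, from 2.69% to 5.84% in Vehicle-OVA, from 1.17% to 3.04% in Ribavirin, and for Ribavirin-OVA from 2.39% to 3.38%, over the 3, 5, 4 and 5 genes with more than 20 lymphocyte UMIs. Against the leading class of each gene the level was 0.0272% to 1.77% for these. Retnlg gave the upper end in Vehicle and Ribavirin, and its lymphocyte UMIs were not evenly spread. Of them, 42.7% in Vehicle and 25.4% in Ribavirin lay in lymphocytes with at least 5, with up to 69 and 42 in a cell. The source of these was not tested. A Chil4 UMI was found in 47.9% of the lymphocytes of Ribavirin-OVA but in 0.121% of those of Vehicle. In Ribavirin-OVA Chil4 was at 123 CPM in T cell-like, 106 CPM in B cell-like, 127 CPM in macrophage-like and 105 CPM in monocyte-like cells, with at most 19 UMIs in any one of these cells.

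Chil4 in macrophage-like and monocyte-like cells of Ribavirin-OVA was thus at or near the level of lymphocytes (121 CPM), of which T cell-like and B cell-like cells are part. Its ratios in these classes (70.97 in macrophage-like and 50.7 in T cell-like cells under ribavirin) are not read as expression by those cells. A few other places were above that level. Unnamed cluster 32, with Mup4, Mup5 and Obp1a among its leading genes, held 2071 Chil4 UMIs in Ribavirin (163 CPM), 6.73% of the Chil4 UMIs of that library, but 2064 of them lay in 1 of its 220 cells. Unnamed cluster 19, whose median depth was 1025 UMIs, was at 559 CPM in Ribavirin-OVA from 288 UMIs in 357 cells with at most 5 in a cell, and the source of these was not tested. Neutrophil-like cells of Ribavirin-OVA had a higher Chil4 level (228 CPM) at a lower median depth (2686 UMIs against 5017 in T cell-like cells), with 1395 UMIs in 2141 cells against 1101 UMIs in 1536 T cell-like cells. The ratio of Chil4 UMIs to those of Bpifa1, an epithelial secretion gene, in Ribavirin-OVA was 0.762 in epithelial-like cells and 0.642 in lymphocytes, and in Vehicle 0.0169 and 0.0190. For Chil1 the ratio to Bpifa1 in Ribavirin-OVA was 0.0455 in epithelial-like cells and 0.0473 in lymphocytes. In Vehicle-OVA the ratios differed more. For Chil4 the ratio to Bpifa1 was 0.281 in epithelial-like cells and 0.199 in lymphocytes, and for Chil1, which neutrophil-like cells of that library also held, it was 0.0944 and 0.352, beside 0.334 in all cells other than lymphocytes. Among the lymphocytes of Vehicle-OVA 1 cell held 35 of the 87 Chil4 UMIs and 1 cell 159 of the 437 Bpifa1 UMIs.

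The main sources stood well above this background. Retnla in macrophage-like cells of Vehicle-OVA and Ribavirin-OVA was at 225 and 926 CPM against 3.99 and 6.87 CPM in lymphocytes. Chil3 in macrophage-like cells was at 779 and 1930 CPM against 9.60 and 21.5 CPM, and in those of Vehicle at 5.19 CPM against 1.08 CPM. Retnla in macrophage-like cells of Vehicle (0.780 CPM) was not clearly above lymphocytes (0.494 CPM, 0.282 to 0.802, of which 15 of 16 UMIs lay in 1 cell). In Ribavirin it had 0 UMIs in 4504 lymphocytes, which allows up to 0.117 CPM, against 0.849 CPM in macrophage-like cells.

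**Figure D5:**
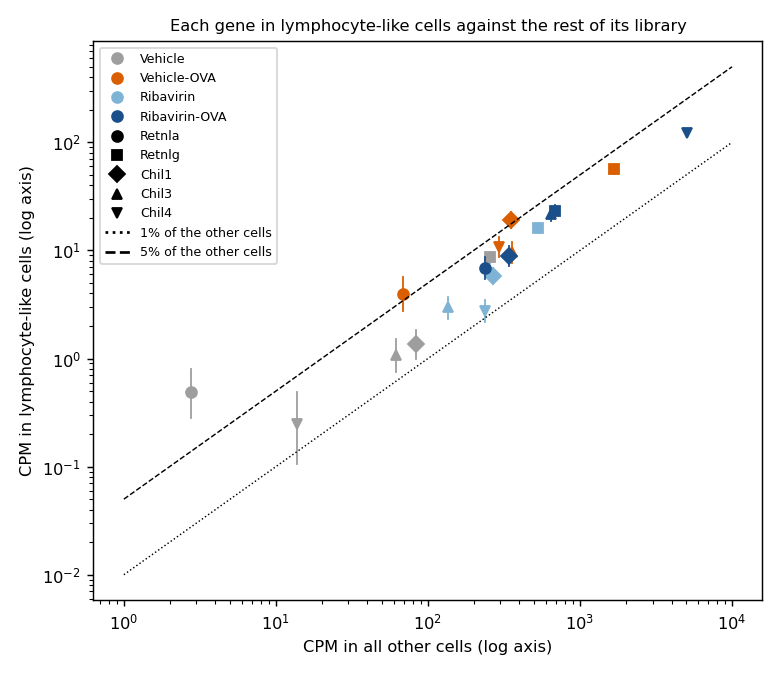
Level of each gene in T cell-, B cell- and NK-like cells pooled against its level in all other cells of the same library (CPM, log axes), with 95% counting intervals and lines at 1% and 5% of the other cells. Most points lie between the lines, Retnla and Chil1 in Vehicle-OVA and Retnla in Vehicle lie above both, the last through 15 UMIs of 1 cell, and Chil4 in Ribavirin-OVA has the highest lymphocyte level (121 CPM).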

How the data were processed

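CD45+ cells of the nasal mucosa were profiled on the 10x platform in 4 libraries, 1 per group. The deposited values are raw counts of UMIs per gene and cell, made by the authors with Cell Ranger 5.0.0 on the mm10 build per the submitters' processing notes. The annotation release is not given in the sources used here. Cells were kept from 200 genes and 500 UMIs upward where the mitochondrial share was below 10%. Doublets were scored against simulated doublets and removed above a score of 0.25, a threshold set after the scores were seen, which marked 5.52%, 2.70%, 3.20% and 0.544% of Vehicle, Vehicle-OVA, Ribavirin and Ribavirin-OVA, below the 11.3%, 7.66%, 8.56% and 4.12% expected from their cell numbers, so doublets may remain, in Ribavirin-OVA in particular. Counts were scaled per cell, and 2000 variable genes without the 5 members gave 30 principal components, a graph of 15 neighbours and Leiden clusters at resolution 1 (Python 3.11.15, NumPy 2.4.6, SciPy 1.17.1, pandas 2.3.3, igraph 0.11.9, leidenalg 0.10.2, Matplotlib 3.10.9). Clusters were named from marker lists, and a cluster with fewer than 3 detected markers or with more markers of another class among its top 10 genes stayed unnamed. For each class and library, UMIs were added up and expressed as CPM with exact Poisson intervals, ratios with exact binomial intervals, and shares with Clopper-Pearson intervals after thinning cells to 1000 UMIs with shallower cells left out. Ratios were compared for genes that reached 50 UMIs in a class, all 4 libraries added, and 2-fold on the scale of log2(CPM + 1) was the limit for a call. The named genes were the 5 members, the genes of the lists and the 5 genes most like each member by Pearson correlation of log2(CPM + 1). For clusters, the 3 with the highest level of each member among those with at least 100 cells were named, and clusters 5, 10, 19, 30, 32, 35, 43 and, for Chil3 and Chil4, 16 and 36 were added after their values were seen. The code was tested on simulated data. With 1 library per group no p-value was computed. The members and gene lists were chosen with earlier results of these data known.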

Additional observations from a re-analysis of the deposited data

Results flagged for a closer look

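Results are given here where the 2 pairs of libraries differed in opposite directions, with 1 library per group, so that the difference between the pairs was not tested. The values are log2 ratios of OVA over control under vehicle minus those under ribavirin. For Retnlg this difference was 2.65 in neutrophil-like cells (3.69-fold under vehicle, 0.587-fold under ribavirin), -1.09 in immature neutrophil-like cells (0.486-fold and 1.04-fold) and 1.95 in epithelial-like cells (2.18-fold and 0.562-fold). For Retnla it was -8.99 in cDC-like cells (0.0997-fold and 50.6-fold), where all UMIs of Vehicle came from 1 cell.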

How the results depend on the processing

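No paired analysis was possible because each group is 1 library. Values are log2 ratios with over without OVA in the leading class of each gene, and the cause of a move was not tested unless a value shows it. The alternatives that leave out the 5 richest cells or clusters of 1 library, or count unnamed clusters, and all alternatives for other classes, were chosen after seeing the data. Of 110 alternative ratios in leading classes, 65 stayed within counting error, 38 moved and 7 changed sign, and of 88 in other classes 29 stayed, 57 moved and 2 changed sign. Without the 5 cells richest in the gene in each library the vehicle and ribavirin ratios were at least 10.25 and at least 12.31 for Retnla (8.17 and 10.09 before), -1.08 and 0.075 for Retnlg, 0.51 and -0.29 for Chil1, -0.69 and -0.85 for Chil3 and 8.22 and 5.19 for Chil4. Relative to the median of all genes they were -1.37 and -0.29 for Retnlg (-1.04 and 0.05 before), 0.077 and -0.20 for Chil1 (0.28 and 0.05), -0.93 and -1.02 for Chil3 (-0.59 and -0.68) and 3.804 and 3.96 for Chil4 (4.00 and 4.21). With each library clustered on its own they were -0.73 for Retnlg under vehicle, -0.032 and -0.34 for Chil1, -0.84 and -0.61 for Chil3 and 3.65 and 3.91 for Chil4. As means of single-cell CPM they were -0.14 for Retnlg under ribavirin, 0.94 and 0.21 for Chil1, -0.72 and -0.87 for Chil3 and 3.68 and 4.37 for Chil4. With doublets kept they were -0.996 for Retnlg and 0.060 for Chil1 under vehicle, -0.23 for Chil1 under ribavirin, and 3.75 and 3.90 for Chil4. A mitochondrial limit of 5% gave -0.99 for Retnlg under vehicle, 0.18 and 0.44 for Chil1 and 3.30 and 4.95 for Chil4, and no filter on cells gave -0.90 for Retnlg, 0.59 for Chil1 and 3.66 for Chil4 under vehicle. The ribavirin ratio of Retnlg in neutrophil-like cells turned from -0.77 to 0.17 with each library on its own and to 0.015 with unnamed clusters counted. The signs of Chil1 in epithelial-like cells and of Retnlg under ribavirin thus depend on the processing. Over the alternatives Chil3 stayed higher with OVA, at 4.53 to 7.72 and 5.10 to 8.15 in macrophage-like cells and at 1.86 to 3.62 and 0.60 to 1.90 in monocyte-like cells.

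Unthinned, the shares of cells with a UMI in Vehicle-OVA and Ribavirin-OVA were 8.84% and 26.05% for Retnla, and in the order Vehicle, Vehicle-OVA, Ribavirin and Ribavirin-OVA 90.2%, 98.5%, 96.4% and 98.6% for Retnlg and 43.2%, 69.9%, 55.2% and 57.5% for Chil1. In Vehicle-OVA, Ribavirin and Ribavirin-OVA they were 71.5%, 64.9% and 52.1% for Chil3 and 54.9%, 14.1% and 87.9% for Chil4. Without the minimum of 50 UMIs the immature neutrophil-like class had 1871 in place of 967 genes at least 2-fold higher and 1423 in place of 282 lower under vehicle, and 1156 in place of 584 higher and 649 in place of 236 lower under ribavirin.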
